A study of Mus musculus with 6 samples.

Results

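The MARK kinases (microtubule affinity regulating kinases) are 4 serine/threonine kinases of cell polarity, encoded in the mouse by Mark1, Mark2, Mark3 and Mark4. They were described here in primary keratinocytes by symbol, so the 4 members were taken from 52550 genes in the deposited gene table, and all 4 were among the 15778 genes that passed the filter on low counts. Their annotation holds 40 of the 131146 transcripts in the deposited transcript table. The family was chosen by the difference of Mark4 between the groups in these same libraries, measured by edgeR on the deposited counts. The differences of the members are therefore a description and carry no test of their own.

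RNA sequencing had been done on wild type C57BL/6 mice at postnatal day 0 to 2. Epidermal cells were freed with dispase and trypsin, grown for 2 days, and harvested either 12 h after recombinant IL-33 was added (IL-33 libraries) or without it (untreated libraries). IL-33 is a cytokine of the IL-1 family that is itself stored in the nuclei of epithelial cells. There were 3 libraries per group. Neither the dose of IL-33 nor whether the libraries came from separate animals or cultures is given in the sources used here, so any p-value reflects how far these libraries spread, and that spread may be technical.

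MARK kinases are the mammalian relatives of PAR-1, a kinase of the partitioning-defective set first found in the Caenorhabditis elegans embryo. They phosphorylate microtubule-associated proteins such as tau, MAP2 and MAP4, which then leave the microtubule, and they mark other substrates for capture by 14-3-3 proteins. The kinase LKB1 switches them on by phosphorylating a threonine in the activation loop, and atypical protein kinase C phosphorylates them and so keeps them off the apical membrane. In epithelia they act at the lateral membrane, and the mouse epidermis uses the same polarity machinery to orient its basal cells.

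The activation loop is the stretch through which all 4 kinases receive the LKB1 signal. It is shown here as the coding sense of 45 bases from the GENCODE M21 transcripts, with the codon of the LKB1 threonine in capitals.
Mark1-201 (chromosome 1, 184919626 to 184919670, minus strand): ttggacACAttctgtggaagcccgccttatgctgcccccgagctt
Mark2-202 (chromosome 19, 7285840 to 7285884, minus strand): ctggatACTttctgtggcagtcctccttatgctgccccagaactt
Mark3-201 (chromosome 12, 111627160 to 111627204, plus strand): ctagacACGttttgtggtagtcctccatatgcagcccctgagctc
Mark4-201 (chromosome 7, 19443225 to 19443269, minus strand): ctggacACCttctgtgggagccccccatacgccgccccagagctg

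Each gene used a different codon for that threonine, and any 2 of the stretches had 34 to 37 of 45 bases in common. Over the aligned coding sequence the members were 66.2% to 73.8% identical, and Mark4 was the most distant, at 66.2% to 67.5% with the others. The longest run that Mark4-201 had in common with another member's main transcript was 16 to 20 bases, against 41 to 65 bases among Mark1, Mark2 and Mark3. No run of 50 bases in Mark4-201 occurred in a transcript of any other gene. The only such sharing was between Mark1-201 and Mark3-201, with 16 of 4172 runs of 50 bases in Mark1-201. The processed pseudogenes Mark1-ps1, Mark1-ps2 and Mark4-ps were listed at 0 counts in all 6 libraries.

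The IL-33 libraries held 34188173 to 44255925 deposited counts and the untreated libraries 41456441 to 45266298, with IL-33 replicate 2 the shallowest. Low values piled up at multiples of 4, so 12 deposited counts, or about 3 fragments, served as the floor, which is 0.265 to 0.352 CPM (the count scaled to the library total). The cells carried the markers of basal keratinocytes. Krt5 stood at 18995 ± 753 CPM in IL-33 libraries and 18034 ± 242 CPM in untreated libraries (SD, n = 3 each). Krt14 lay at 14087 to 15040 CPM with IL-33 and 14042 to 14791 CPM untreated. Krt1 and Krt10, keratins of the suprabasal layers, lay at 0.883 to 4.26 CPM in all 6 libraries. Not every marker followed its layer. The suprabasal gene Sbsn stood at 69.1 to 107 CPM and the basal keratin Krt15 at 0.523 to 1.41 CPM. Group differences in these markers went both ways. Krt5 and basal Dst (1963 to 2198 CPM with IL-33, 1882 to 1943 CPM untreated) were higher in all IL-33 libraries. Basal Itgb4 was lower in all of them, at 849 to 1007 CPM against 1112 to 1131 CPM. So was suprabasal Ivl, at 2.94 to 4.85 CPM against 5.12 to 6.09 CPM. The groups overlapped for the other basal and suprabasal markers. Dst, Itgb4 and Ivl were named after their values were seen. The 8 melanocyte markers were present and summed to 1156 to 1257 CPM in IL-33 libraries and 1158 to 1209 CPM in untreated libraries. The 10 fibroblast markers summed to 139 to 177 CPM in IL-33 libraries and 141 to 175 CPM in untreated libraries, and the 10 immune markers to 33.1 to 33.6 CPM with IL-33 and 29.0 to 35.0 CPM untreated. Of the immune list Cd207, Cd3e, H2-Aa and Itgam were at 0, while Cd68 (20.0 to 24.8 CPM) and Csf1r (9.01 to 11.3 CPM) were present in all 6 libraries. Endothelial markers summed to 14.3 to 20.4 CPM and those of Merkel cells or neurons to 32.1 to 38.4 CPM over the 6 libraries. None of the markers of 7 cell types was called, against 0.0697% of all tested genes. An unadjusted edgeR p under 0.05 was found for 2 of 8 tested basal and 2 of 7 suprabasal markers. It was also found for 1 of 8 tested fibroblast markers and 1 of 4 of Merkel cells or neurons, and for none of the rest. Over all tested genes the share was 6.74%. The part of melanocytes in the MARK levels was not tested.

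All 4 kinases were expressed in every library, and their order by level per length was the same in all 6. Levels per length are the deposited gene FPKM (fragments per kilobase of exon, scaled to depth). Mark3 was the highest, with 19.6, 19.8 and 19.5 FPKM in IL-33 libraries and 18.9, 18.3 and 20.3 FPKM in untreated libraries. Mark4 came next at 17.4, 16.6 and 15.1 FPKM with IL-33 and 11.1, 11.5 and 11.1 FPKM untreated. Mark2 had 9.69, 9.73 and 9.15 FPKM with IL-33 and 9.71, 9.27 and 9.10 FPKM untreated. Mark1 was the lowest member, at 6.44, 6.96 and 5.65 FPKM in IL-33 libraries and 7.0, 6.20 and 6.57 FPKM in untreated libraries. Within each group, no 2 neighbours in this order overlapped over the 3 libraries. By gene FPKM, Mark4 lay nearer to Mark3 in the IL-33 libraries and nearer to Mark2 in the untreated ones.

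**Figure D1:**
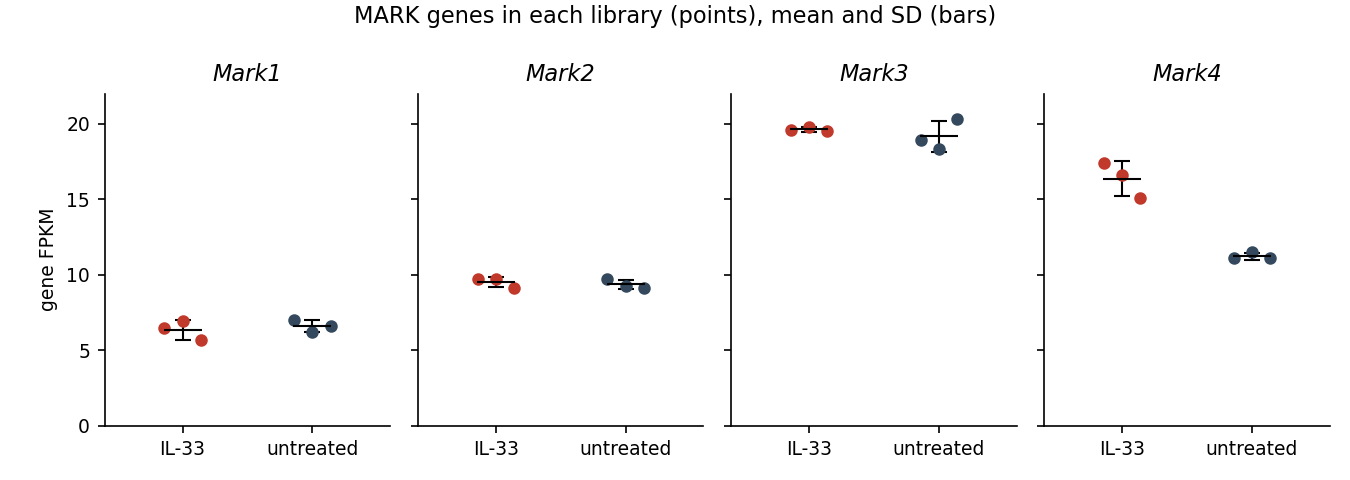
Gene FPKM of the 4 MARK genes in each library (points), with IL-33 left of untreated in each panel; the long line is the mean and the bars are the SD over 3 libraries. The Mark4 points with IL-33 (15.1 to 17.4 FPKM) lie above the untreated ones (11.1 to 11.5 FPKM), while the groups overlap for Mark1, Mark2 and Mark3.

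The order of Mark4 and Mark2 depended on the length by which counts were divided. Gene FPKM followed, within 1%, the count divided by the union of all exons of a gene, which is 4356 bases for Mark1, 7942 for Mark2, 9700 for Mark3 and 4668 for Mark4. Summing the deposited FPKM of the transcripts instead gave Mark2 24.5 to 26.2 FPKM in IL-33 libraries and 24.1 to 25.2 FPKM in untreated libraries. On that scale Mark4 had 18.8 to 21.4 FPKM with IL-33 and 13.5 to 14.7 FPKM untreated, below Mark2 in all 6 libraries. Mark3 averaged 54.8 FPKM with IL-33 and 55.2 FPKM untreated there, so Mark4 lay nearer to Mark2 than to Mark3 in both groups. Mark3 stayed the highest and Mark1 the lowest on both scales. With the FPKM of each gene's main transcript alone, a measure added once the data were seen, Mark4 was above Mark2 in 3 IL-33 libraries and 1 untreated library.

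Mark4 was the member whose groups separated. In TMM-scaled CPM its level was 90.1, 86.2 and 78.8 CPM in IL-33 libraries and 57.5, 59.7 and 57.4 CPM in untreated libraries. The lowest IL-33 library lay above the highest untreated one, and the untreated libraries were the tighter group. In deposited counts these were 3962, 2938 and 3479 with IL-33 and 2574, 2469 and 2600 untreated, so the shallowest library, IL-33 replicate 2, also held more Mark4 counts than any untreated library. The mean was 85.1 ± 5.76 CPM with IL-33 and 58.2 ± 1.28 CPM untreated (SD, n = 3 each), a 1.46-fold difference and a log2 fold change of 0.55 (SE 0.066, 95% interval 0.40 to 0.70). Mark4 was thus 1 of the 11 genes, 0.0697% of those tested, with an edgeR adjusted p under 0.05 (0.0207 for Mark4), and 1 of the 7, or 0.0444%, that were higher with IL-33, which is the value the family was chosen by. All IL-33 libraries lay above all untreated ones in 7.39% of the tested genes. In bulk RNA, more RNA per cell and more cells of a type that expresses the gene cannot be told apart.

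That call depended on the libraries and on the method, while the log2 fold change moved little. The log2 fold change of Mark4 stayed at 0.50 to 0.60 under all 17 other settings, and the adjusted p was under 0.05 in 8 of them. Each setting refits the libraries by which Mark4 was chosen, so none is a test of the size. A fit with 1 library left out also has less power. Leaving out an untreated library raised the edgeR adjusted p to 0.102 when this was replicate 1, to 0.0628 for replicate 2 and to 0.0796 for replicate 3. Among the IL-33 libraries, dropping replicate 1 gave 0.0602 and dropping replicate 2 gave 0.0898, whereas dropping replicate 3, the lowest of them, gave 0.00349.

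**Figure D2:**
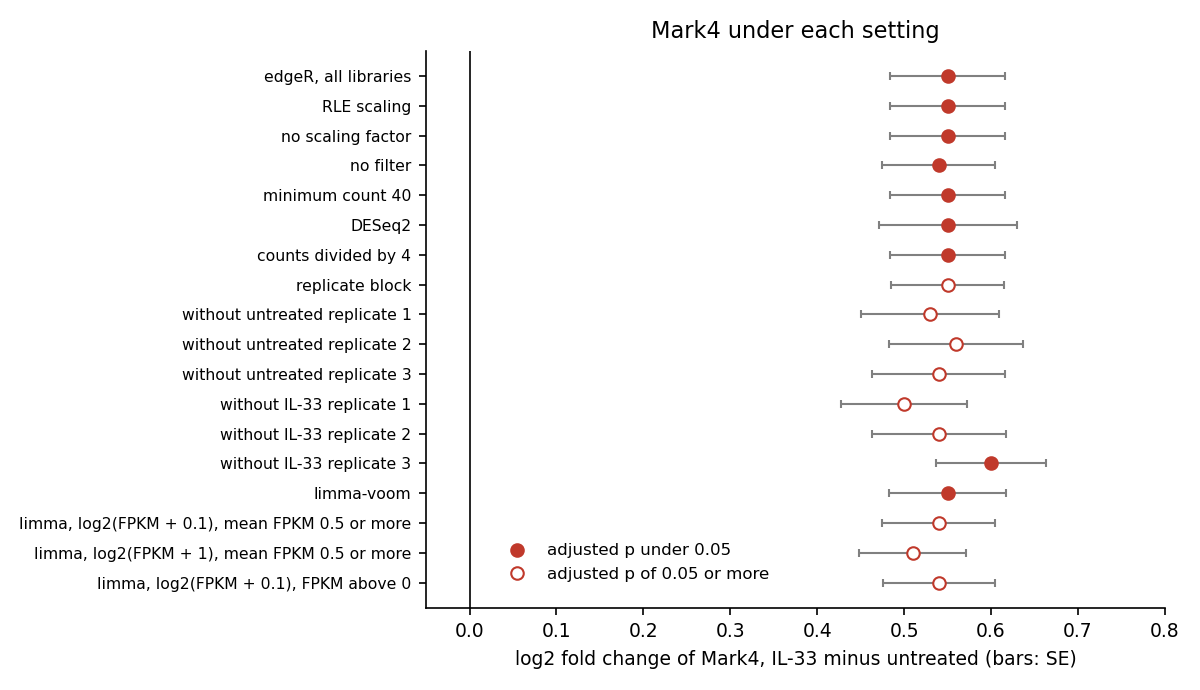
Log2 fold change of Mark4, IL-33 minus untreated, with its SE under the main fit (top) and 17 other settings; filled points have an adjusted p under 0.05. All points lie between 0.50 and 0.60, and 8 of the other settings are filled.

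Mark1, Mark2 and Mark3 differed little between the groups. Mark3 stood at 211, 214 and 211 CPM in IL-33 libraries and 204, 198 and 218 CPM in untreated libraries, a log2 fold change of 0.04 (95% interval -0.07 to 0.14). Mark2 was at 85.7, 86.2 and 81.2 CPM with IL-33 and 85.9, 82.3 and 80.4 CPM untreated, a log2 fold change of 0.03 (-0.10 to 0.15). Mark1 had 31.1, 33.7 and 27.4 CPM with IL-33 and 33.9, 30.1 and 31.8 CPM untreated, a log2 fold change of -0.05 (-0.27 to 0.16). The groups overlapped for all 3 genes. None had an adjusted p under 0.05 in any of the 17 other settings, fitted by edgeR, DESeq2 or limma. The lowest was an edgeR adjusted p of 0.755, for Mark3 without untreated replicate 3. The median log2 fold change of all tested genes was 0.00.

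The make-up of the family therefore differed by Mark4. Mark4 held 32.8%, 31.3% and 30.6% of the summed gene FPKM of the 4 kinases in IL-33 libraries and 23.7%, 25.3% and 23.5% in untreated libraries. Mark3 held 36.9%, 37.3% and 39.4% with IL-33 and 40.5%, 40.4% and 43.1% untreated. The ratio of Mark4 to Mark3 FPKM, which no scaling between libraries can move, was 0.888, 0.839 and 0.778 with IL-33 and 0.587, 0.627 and 0.546 untreated. Together the 4 kinases summed to 53.1, 53.1 and 49.4 FPKM in IL-33 libraries and 46.7, 45.2 and 47.0 FPKM in untreated libraries, so the treated libraries held more MARK transcript in all. By summed transcript FPKM the Mark4 share was 19.5%, 19.2% and 18.1% with IL-33 and 13.1%, 15% and 13.8% untreated, and the ratio of Mark4 to Mark3 averaged 0.371 with IL-33 and 0.256 untreated. The levels of both thus depended on the length scale, while the groups stayed apart on gene FPKM and on summed transcript FPKM. By the FPKM of each gene's main transcript the groups overlapped. The ratio of Mark4 to Mark3 was then 0.678, 0.566 and 0.596 with IL-33 and 0.623, 0.373 and 0.412 untreated.

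Among the transcripts of the family, 38 of 40 had a count in some library, 29 reached the floor and 26 were tested. None was called by edgeR, where 0.0299% of all 40163 tested transcripts were. Of the 26, 2 had an unadjusted p under 0.05, both of Mark4, where 4.24% of all tested transcripts did, and DESeq2 called none of the 24 for which it gave an adjusted p. How counts are split between overlapping transcripts is an estimate made by the authors' software, so the shares below describe that assignment.

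Mark4-201, the protein-coding transcript of 3886 bases, carried nearly all of the difference of its gene. It had 87.7, 62.6 and 77.9 CPM in IL-33 libraries and 56.8, 47.1 and 46.3 CPM in untreated libraries. The groups did not overlap, which also held for 11.3% of all tested transcripts. The mean of Mark4-201 differed by 26.0 CPM, against 26.8 CPM for the sum of all Mark4 transcripts. Its log2 fold change was 0.60 (SE 0.154, edgeR unadjusted p = 0.00961, adjusted p = 0.871). The other transcripts nearly cancelled, with mean differences of 6.28 CPM for Mark4-205, -5.89 CPM for Mark4-202 and 0.506 CPM for Mark4-203. Mark4-205 and Mark4-202 each hold a short exon that Mark4-201 lacks, shown in capitals between the flanking exon bases because it tells the annotated forms apart. They also begin and end at other positions, and Mark4-202 lacks the first exon of Mark4-201.
Mark4-202 (processed transcript, a 13-base exon): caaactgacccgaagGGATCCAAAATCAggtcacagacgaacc
Mark4-205 (annotated as a target of nonsense-mediated decay, a 34-base exon): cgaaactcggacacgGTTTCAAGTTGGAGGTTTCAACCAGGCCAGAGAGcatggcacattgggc

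On chromosome 7 the spliced stretch of Mark4-202 runs from 19428104 to 19429340 and that of Mark4-205 from 19451742 to 19458458, both on the minus strand with introns between the parts. Mark4-202 was assigned 2.16, 3.45 and 0 CPM in IL-33 libraries and 0.135, 12.4 and 10.7 CPM in untreated libraries. Mark4-205 had 0.368, 19.2 and 0.457 CPM with IL-33 and 0.494, 0.0487 and 0.624 CPM untreated. Only IL-33 replicate 2, the shallowest library, held Mark4-205 at a level above 1 CPM, and without that library its log2 fold change was 0.08 in place of 4.08. Summed, the 3 transcripts Mark4-201, Mark4-202 and Mark4-205 gave 90.2, 85.2 and 78.3 CPM with IL-33 and 57.4, 59.6 and 57.6 CPM untreated, a tighter set of values in each group than those of Mark4-201 alone. The retained-intron transcript Mark4-203 was at 0.781, 0.614 and 1.12 CPM with IL-33 and 0.382, 0.414 and 0.201 CPM untreated (edgeR unadjusted p = 0.031, adjusted p = 1.0). Mark4-204 stayed under the floor in every library.

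**Figure D3:**
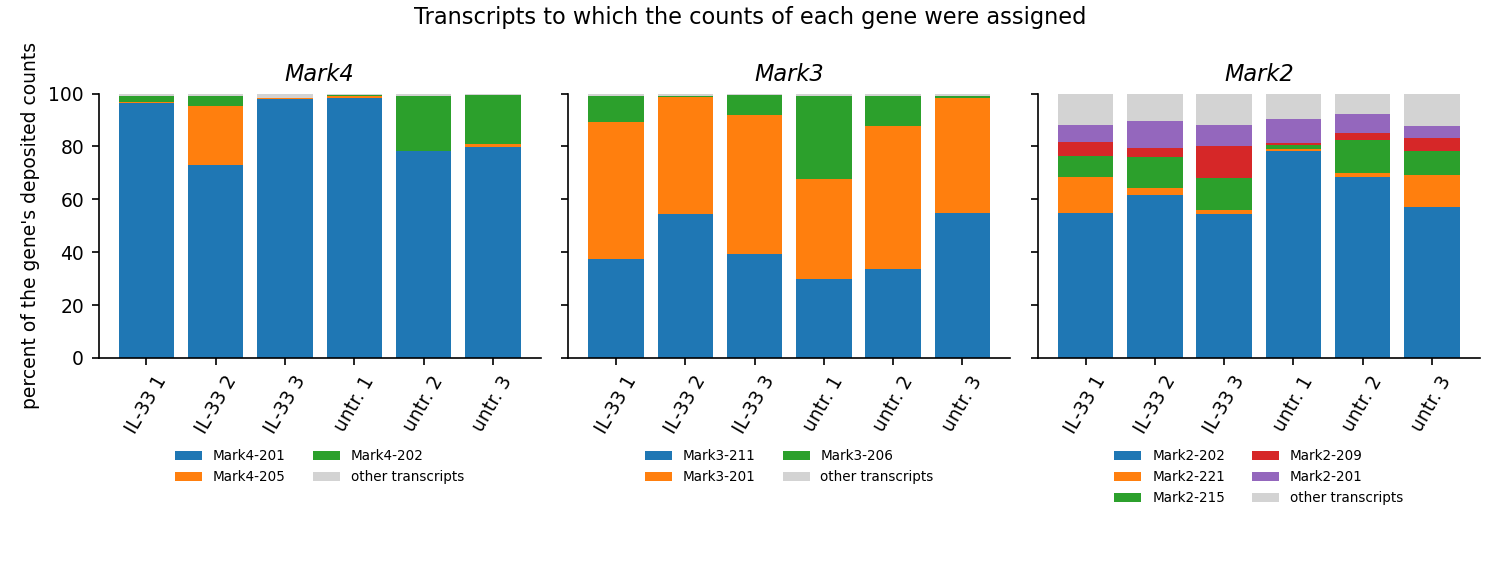
Percent of the deposited counts of Mark4, Mark3 and Mark2 assigned to each transcript, with 1 bar per library, IL-33 left of untreated; transcripts that reach 10% in no library are pooled in grey. Mark4-205 reaches 22.3% in IL-33 replicate 2 alone, and Mark3-206 ranges from 0.330% to 31.3%.

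The transcripts of Mark3 varied more between libraries of the same group than their gene did. The coding transcript Mark3-201 had 110.5, 94.6 and 112 CPM in IL-33 libraries and 77.9, 108 and 96.0 CPM in untreated libraries. Mark3-211, annotated as a retained intron, was at 80.0, 115 and 83.6 CPM with IL-33 and 60.9, 66.9 and 121 CPM untreated. Mark3-206, a coding form with an extra exon of 27 bases, was at 20.9, 0.702 and 15.9 CPM with IL-33 and 64.1, 22.7 and 1.11 CPM untreated. The groups overlapped for each of the 3, yet their sum held 203 to 218 CPM in 5 libraries and 198 CPM in untreated replicate 2. Together they made up 99.1% to 99.4% of the Mark3 counts with IL-33 and 98.9% to 99.1% untreated.

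Alternative exons near the 3′ end of the coding sequence set the forms of Mark2 and Mark3 apart, and these are shown because the inclusion values below count them. All 4 genes have an exon of 45 bases in this region, with 21 to 29 of 45 bases in common between any 2 members, and Mark2 and Mark3 also have one of 27 bases.
Mark1, 45 bases (chromosome 1, 184900809 to 184900853): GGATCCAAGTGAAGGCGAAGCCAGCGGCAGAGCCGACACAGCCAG
Mark2, 45 bases (chromosome 19, 7278042 to 7278086): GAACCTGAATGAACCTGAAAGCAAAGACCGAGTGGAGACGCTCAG
Mark3, 45 bases (chromosome 12, 111653390 to 111653434): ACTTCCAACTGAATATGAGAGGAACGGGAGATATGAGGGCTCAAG
Mark4, 45 bases (chromosome 7, 19428074 to 19428118): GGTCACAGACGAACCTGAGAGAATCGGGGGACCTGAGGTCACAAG
Mark2, 27 bases (chromosome 19, 7279986 to 7280012): AAATCTGTCTTTCAGGTTTGCCAGAAG
Mark3, 27 bases (chromosome 12, 111651958 to 111651984): AAACATGTCATTCAGGTTTATCAAAAG

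Inclusion was taken as the percent of transcript FPKM, among transcripts that span the site, held by those that contain the exon. The 27-base exon of Mark2 was included at 71.0%, 63.4% and 54.6% in IL-33 libraries and 81.5%, 65.1% and 70.6% in untreated libraries. That of Mark3 was included at 12.2%, 0.425% and 9.38% with IL-33 and 37.1%, 14.1% and 0.667% untreated, and rests on Mark3-206 alone. The exon was thus part of most Mark2 transcript and of a minority of Mark3 transcript in every library. The 45-base exon stood at 73.4% to 81.7% with IL-33 and 78.2% to 95.8% untreated in Mark2. In Mark3 it stood at 44.1% to 50.5% with IL-33 and 43.2% to 61.9% untreated. The Mark3 value counts the retained-intron form Mark3-211, at 17.8, 26.0 and 18.5 FPKM with IL-33 and 13.6, 14.8 and 26.8 FPKM untreated. The coding form Mark3-206 had 6.63, 0.221 and 5.02 FPKM with IL-33 and 20.5, 7.19 and 0.354 FPKM untreated. The Mark3 percent is therefore not the share of coding transcript that holds the exon. In Mark1 and Mark4 no annotated transcript across the site lacks the 45-base exon, so it was included at 100%. Groups overlapped in each case.

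Mark2 was spread over 21 annotated transcripts, of which 15 were tested. Mark2-202, its main coding form, had 47.6, 52.9 and 44.8 CPM in IL-33 libraries and 67.5, 56.6 and 46.3 CPM in untreated libraries, and the groups overlapped. The coding forms Mark2-201, Mark2-209, Mark2-215 and Mark2-221 followed, each between 0.494 and 11.7 CPM. Mark1 had a count for 1 of its 2 transcripts, Mark1-201, and Mark1-202 was listed at 0 in all 6 libraries.

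Genes that act with the MARK kinases were taken from 7 lists of their pathway. None of the 102 tested genes was called by edgeR, against 0.0697% of all tested genes, and DESeq2 and limma-voom called none of them either. An unadjusted edgeR p under 0.05 was found for 9 of the 102, or 8.82%, against 6.74% of all tested genes. The groups did not overlap for 22 of them, or 21.6%, against 13.7% of all tested genes. A log2 fold change above 0 was found for 63 of the 102, against 50.5% of all tested genes. From here on, values that did not pass the test are printed with their sign as a description, and no difference is claimed from them. The named genes are the 3 with the smallest p in each list unless said otherwise.

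Upstream of the MARK kinases stand LKB1 (Stk11), its adaptors and other kinases that phosphorylate them. Of 15 tested genes, 0 were called, 6 had a log2 fold change above 0, and the median was -0.02, against 0.00 over all genes. Prkci, an atypical protein kinase C, had 257, 287 and 263 CPM in IL-33 libraries and 252, 242 and 248 CPM in untreated libraries (log2 fold change 0.12, SE 0.0493, edgeR adjusted p = 0.74). The serine/threonine kinase Pim1 had a log2 fold change of 0.14 and Cab39l, a scaffold of the LKB1 complex, one of -0.13. Stk11 itself, given for its role after its values were seen, stood at 60.6, 66.0 and 57.8 CPM with IL-33 and 56.4, 61.3 and 62.1 CPM untreated, with overlapping groups.

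LKB1 also activates other kinases of the AMPK family. The list of AMPK-related genes is wider, since it also holds Melk and AMPK subunits that are not kinases, such as Prkab1 and Prkag1. Here 10 of 15 tested genes had a log2 fold change above 0, 0 were called and the median was 0.01. The salt-inducible kinase Sik1 had 138, 139.9 and 131 CPM in IL-33 libraries and 128, 116 and 126 CPM in untreated libraries (log2 fold change 0.14, SE 0.0552, edgeR adjusted p = 0.74). Nuak1 and Sik2 had log2 fold changes of 0.27 and -0.11, with overlapping groups.

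Apical PAR and Crumbs proteins oppose MARK at the cell cortex. Of 14 tested members 0 were called, 8 lay above 0 on the log2 scale and the median was 0.01. An unadjusted edgeR p under 0.05 was found for 4 of the 14, against 6.74% of all tested genes and 0 or 1 gene in each other list. The groups did not overlap for 6 of the 14, against 13.7% of all tested genes. They also did not overlap for 4 of 10 genes of the Scribble module and 5 of 20 microtubule-associated proteins, both described below. In each remaining list this held for 1 or 2 genes. Pard6g, a PAR6 adaptor of atypical protein kinase C, had 199, 203 and 189.9 CPM in IL-33 libraries and 178, 183 and 178 CPM in untreated libraries (log2 fold change 0.13, SE 0.044, edgeR adjusted p = 0.687). Tiam1, a Rac exchange factor that binds PAR3, had 138, 148 and 131 CPM with IL-33 and 131, 96.1 and 103 CPM untreated (log2 fold change 0.34, SE 0.115, edgeR adjusted p = 0.74). Amotl2, an angiomotin family scaffold, had a log2 fold change of -0.10. The widest value of the list, 0.59 for Pard3b, named after its values were seen, rests on 2.40 ± 0.562 CPM with IL-33 and 1.59 ± 0.202 CPM untreated (SD, n = 3 each).

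The Scribble module holds the basolateral scaffolds beside which MARK acts. Of its 10 tested members 0 were called, 7 had a log2 fold change above 0 and the median was 0.08. The scaffold Dlg5 had 119, 125 and 123 CPM in IL-33 libraries and 93.5, 114 and 115 CPM in untreated libraries (log2 fold change 0.19, SE 0.0773, edgeR adjusted p = 0.74). Dlg3 and Dlg1, of the same membrane-associated guanylate kinase family, had log2 fold changes of 0.21 and 0.12.

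Downstream, the microtubule-associated proteins include the substrates that gave the kinases their name. Of 20 tested genes 0 were called, 12 had a log2 fold change above 0 and the median was 0.03. The plus-end binding protein Mapre2 had 38.7, 35.9 and 39.7 CPM in IL-33 libraries and 30.7, 33.6 and 32.8 CPM in untreated libraries (log2 fold change 0.23, SE 0.0764, edgeR adjusted p = 0.687). Camsap2 and Camsap3, which bind microtubule minus ends, had log2 fold changes of -0.10 and 0.14 and groups that did not overlap. The classical substrates are named here for their role after their values were seen. Map4 was at 306 ± 24.5 CPM with IL-33 and 322 ± 23.2 CPM untreated (SD, n = 3 each, also below). Mapt (tau) was at 4.59 ± 1.19 CPM with IL-33 and 3.98 ± 1.15 CPM untreated. Map2 was at 2.06 ± 0.491 CPM with IL-33 and 1.26 ± 0.441 CPM untreated. Its log2 fold change was 0.71 (SE 0.334), and its groups overlapped.

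The 14-3-3 proteins bind the phosphorylated substrates. None of the 7 was called, 6 had a log2 fold change above 0 and the median was 0.01. Sfn (14-3-3 sigma, the epithelial form) had 3002, 2855 and 2839.8 CPM in IL-33 libraries and 2862, 2842 and 2810 CPM in untreated libraries, and Ywhaz and Ywhag had log2 fold changes of 0.07 and 0.06. Among 21 reported MARK substrates in signalling 0 were called, 17 had a log2 fold change above 0 and the median was 0.07. Utrophin (Utrn) had 109, 111 and 109 CPM with IL-33 and 104, 102 and 100 CPM untreated (log2 fold change 0.11, SE 0.048, edgeR adjusted p = 0.74). The kinesin Kif13b and the class IIa histone deacetylase Hdac5 had log2 fold changes of 0.14 and 0.13.

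**Figure D4:**
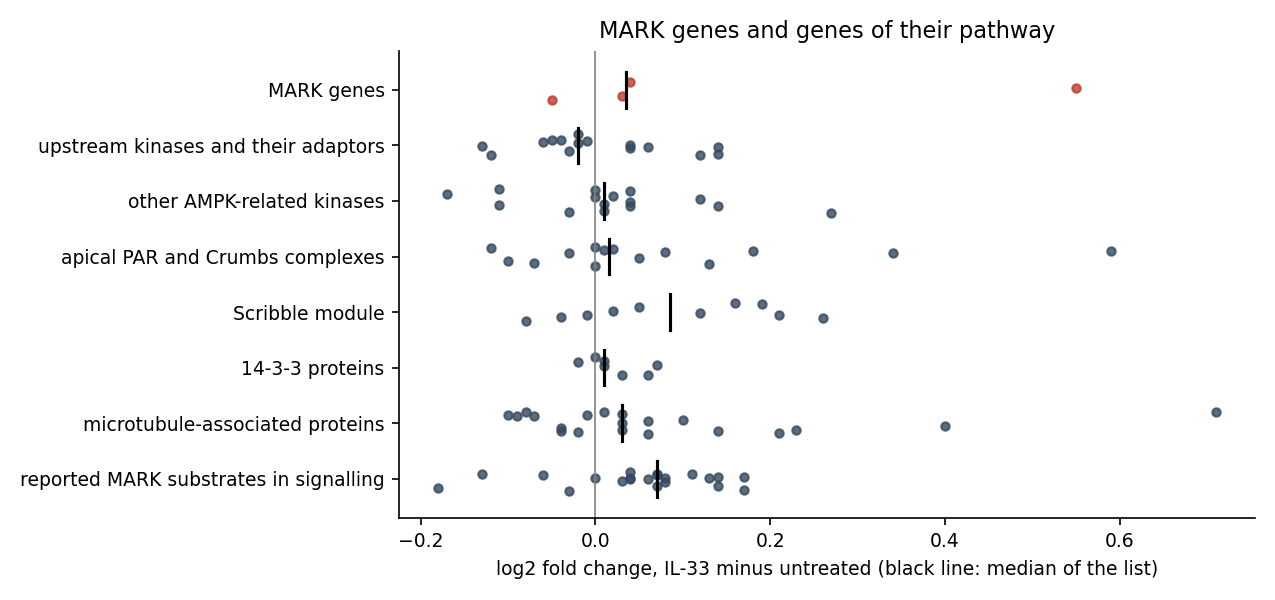
Log2 fold change, IL-33 minus untreated, of the 4 MARK genes (red, top) and of the tested genes in 7 lists of their pathway (dark points); the black line is the median of each list. Mark4, by whose difference the family was chosen, stands at 0.55, so its distance from the lists is no test. The list medians lie between -0.02 and 0.08. The 2 list genes farther right than Mark4 are Map2 at 0.71 (SE 0.334) and Pard3b at 0.59 (SE 0.27).

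The genes whose levels followed each kinase most closely over the 6 libraries were searched among 10988 genes by Pearson correlation of log2 CPM. For Mark4 these were Gpt2, an alanine aminotransferase, with r = 0.996, Uevld with 0.992 and Shtn1, which encodes shootin, with 0.986. Uevld had 50.8, 50.8 and 46.7 CPM in IL-33 libraries and 40.1, 40.8 and 41.0 CPM in untreated libraries. None of these 3 genes was called by edgeR (adjusted p from 0.41 to 0.763). For Mark1 the genes were Mfhas1 (0.990), Lzic (0.983) and Wdr54 (0.982), for Mark2 Tmem106c (0.987), Aunip (0.981) and Dnm2 (0.980), and for Mark3 Dtx3l (0.985), Sema3b (0.981) and Pm20d2 (0.977). Each is the top of 10988 correlations over 6 libraries and describes these libraries only. For Mark4 the correlation takes in the group difference by which the family was chosen. Its values therefore do not show a shared course apart from the groups.

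At its locus Mark4 (ENSMUSG00000030397.10, chromosome 7, 19424775 to 19458821, minus strand) overlaps no other annotated gene. The tested genes on either side were looked up later, with the data already seen. Exoc3l2 lies 4510 bases from Mark4 and had 25.5, 21.4 and 25.1 CPM in IL-33 libraries and 22.8, 24.8 and 22.6 CPM in untreated libraries. Klc3, a kinesin light chain gene 20671 bases away on the other side, had 23.1, 25.8 and 22.3 CPM with IL-33 and 27.2, 23.8 and 27.3 CPM untreated. Groups overlapped for both neighbours. Mark1 (ENSMUSG00000026620.11, chromosome 1, 184896789 to 184999570), Mark2 (ENSMUSG00000024969.15, chromosome 19, 7275396 to 7341860) and Mark3 (ENSMUSG00000007411.16, chromosome 12, 111574523 to 111656221) each overlap 1 annotated gene, Gm38251, Gm17227 and Gm48286. These have no exon base in common with the kinases and at most 5 counts in any library.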

How the data were processed

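The submitters' processing notes list StringTie 1.3.4d, HISAT2 2.1.0, DESeq2 1.18.1, FastQC 0.11.7 and build mm10, with no roles given. The deposited tables hold estimated counts, already whole, and deposited FPKM, for genes and for transcripts. The gene count equalled the sum of its transcript counts for 49014 of 49035 genes. Symbols were matched for 52403 of 52550 gene identifiers. Positions and sequences are from GENCODE M21 on GRCm38 (mm10), which holds 97.16% of the transcript identifiers at the same version and may not be the authors' release.

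The estimated counts were tested with edgeR 4.0.16 in R 4.3.3 (quasi-likelihood, TMM scaling, robust fit, filterByExpr with a minimum count of 10), IL-33 against untreated, with Benjamini-Hochberg adjustment over all genes or transcripts at 0.05. The fit was also run on simulated counts with planted fold changes larger than that of Mark4 and a fixed spread. That run therefore does not cover the effect size of Mark4 or the spread of the transcripts. Alternatives used RLE or no scaling, other filters (none, or a minimum of 40), DESeq2 1.42.0, limma 3.58.1 (voom, and log2(FPKM + 0.1) or log2(FPKM + 1)), counts divided by 4, the replicate number as a block, and each library left out in turn. Floors cover counting error only. Members and lists were chosen with earlier results of these data known. Named genes were the members with their transcripts, the 3 tested genes of smallest p in each list, the 3 genes most correlated with each member (mean log2 CPM of at least 1), overlapping genes, and Krt5, Krt14, Krt1 and Krt10. Others are said to have been added.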

Additional observations from a re-analysis of the deposited data

How the results depend on the processing

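Mark4 was above 0 in all 17 alternatives and Mark2 too, Mark3 in 16 and Mark1 in 1. Mark4 was no longer called with limma on log2(FPKM + 0.1) at a mean FPKM of 0.5 or more (0.54, adjusted p 0.125), on log2(FPKM + 1) (0.51, 0.127) or on log2(FPKM + 0.1) for all FPKM above 0 (0.54, 0.25), and leaving out 1 library gave 0.50 to 0.60. The count of genes called, 11, was 17 with no filter, 60 with DESeq2, 4 with each limma fit on FPKM, and 11 to 90 with 1 library left out (90 without IL-33 replicate 3). The count of transcripts called, 12, was 535 with DESeq2 and 6 to 28 with 1 library left out. By summed transcript FPKM the order of the 4 genes held in 0% of libraries, by the main transcript in 66.7%. The cause of these differences was not tested.

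A replicate block left Mark4 at 0.55 (adjusted p 0.0733), 8 genes were called and 0 transcripts, against 11 and 12 without it. The deviations of libraries with the same number correlated at 0.0656, 0.0863 and 0.0205, and those with different numbers at -0.0927 to 0.0365. Each same-number value lay under the threshold of 0.1, so the numbers were not taken as pairs. Such values cannot exclude a pairing. The replicate block gave Mark1 -0.06, Mark2 0.03 and Mark3 0.04, and 0 list members called.

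Mark4-205 moved from 4.08 to 0.08 without IL-33 replicate 2, and Mark2-218 from -2.22 to 0.10 without untreated replicate 1. Depth limits what can be said of transcripts under 12 counts, 11 of the 40 here.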
